A study of Mus musculus with 2 samples.

Results

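The cytosolic chaperonin, called CCT or TRiC, is a barrel of stacked rings that folds newly made proteins inside its cavity with energy from ATP. Each ring is built from 8 different subunits, each present as a single copy, and the genes that encode them are Tcp1 (subunit alpha), Cct2 (beta), Cct3 (gamma), Cct4 (delta), Cct5 (epsilon), Cct6a (zeta), Cct7 (eta) and Cct8 (theta). Actin and tubulin are its best known clients, and dividing and migrating cells of the embryonic brain make large amounts of both. Cct6b encodes a second form of the zeta subunit that is known from the testis.

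The subunit genes were taken by symbol: 9 genes of the 69691 features in the gene tables, each matched to a single identifier. The 8 genes other than Cct6b are called the constitutive subunits here. The samples were forebrains dissected from B6NCrl mice at embryonic day 12.5, and total RNA was sequenced. Each was a pool of both sexes, with 120 embryos in replicate 1 and 68 in replicate 2. No treatment, mutation or transgene is given in the labels. The 2 replicates form 1 group, so no groups were compared. The question that the data address is how even the RNA levels of the subunits of this complex were in the forebrain. Subunit protein was not measured, so how evenly protein was supplied to the rings is not read here. An exact permutation test over 2 replicates cannot reach a small p-value, so differences are set against the difference between replicates and no p-value is given.

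The libraries held 33711030 and 34578499 expected counts. All 4 genes used from the forebrain list (Lhx2, Emx2, Sox2 and Tubb3) reached 1 TPM in both, and their levels summed to 1002 and 984 TPM. Most of this sum was Tubb3, at 737.3 and 682.7 TPM, and neither Tubb3 nor Sox2 is specific to forebrain among neural tissues. The regional genes were Lhx2, with 161.3 and 185.4 TPM, and Emx2, with 48.6 and 57.2 TPM. None of the 3 Hox genes of hindbrain and spinal cord reached 1 TPM in both replicates, with sums of 0.04 and 0.30 TPM. Erythroid markers summed to 9075 and 12172 TPM and mesenchyme markers to 546 and 647 TPM, higher in replicate 2 for both. Endothelial and microglial markers were also present, so each value is that of a dissected tissue and not of a single cell type. In such bulk tissue, fewer cells of a type and less RNA per cell cannot be told apart.

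The zeta genes are shown as sequence before the values, because they are the closest relatives among the members by sequence and yet lay far apart in level. The opening 60 coding bases of each, read 5′ to 3′ from the transcripts Cct6a-201 and Cct6b-201, differed at 22 positions, which are in capitals.
Cct6a: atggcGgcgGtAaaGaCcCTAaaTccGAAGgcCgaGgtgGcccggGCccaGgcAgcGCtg
Cct6b: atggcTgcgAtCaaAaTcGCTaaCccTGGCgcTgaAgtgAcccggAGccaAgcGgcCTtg
Over the whole open reading frames, of 1599 bases in Cct6a and 1596 in Cct6b, 73.9% of the bases of the shorter frame were identical in a global alignment. The other 35 pairs of member genes had 46.6% to 52.6% by the same measure, with a median of 49.9%. No window of 100 bases of Cct6a-201 or of Cct6b-202, the Cct6b transcript with more counts over both replicates, was shared with a transcript of another annotated gene, so the tables had sequence to keep the zeta genes apart.

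The constitutive subunits were all abundant. Levels are in TPM, which is per unit of transcript length and relative to all transcripts of the library. Of the 9 members, 8 had a mean of 200 TPM or more, against 5.51% of the 13092 named protein-coding genes at 1 TPM or more. Together the 8 gave 3230 TPM in replicate 1 and 3208 TPM in replicate 2, which is 0.323% and 0.321% of all TPM. Their median was 432.8 TPM in replicate 1 and 425.2 TPM in replicate 2, 429.0 ± 5.36 (SD, n = 2). Levels ran 2.41-fold from lowest to highest in replicate 1 and 2.64-fold in replicate 2, and the SD of log2 TPM over the subunits was 0.44 and 0.45.

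**Figure D1:**
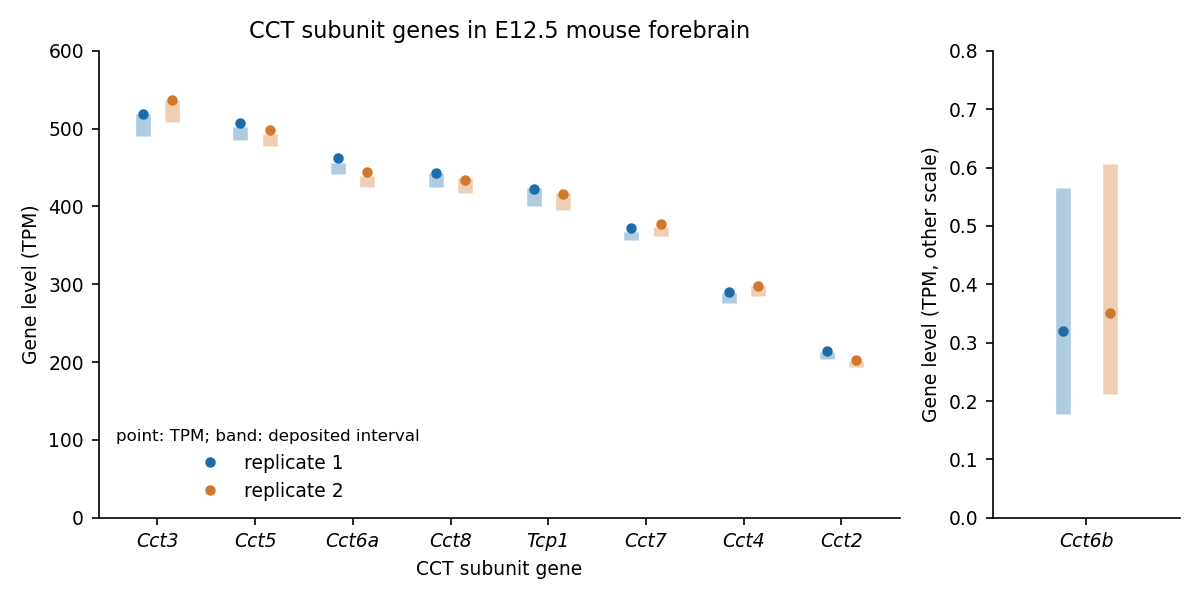
Level of each CCT subunit gene in TPM on linear axes, with Cct6b on its own scale. Points are the deposited TPM of replicates 1 and 2 and bands are the deposited posterior intervals. The 8 constitutive subunits lie between 203.0 and 536.4 TPM and Cct6b at 0.32 and 0.35 TPM.

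In the ring, Cct5, Cct2, Cct4 and Tcp1 lie side by side and are known as the subunits that bind and use ATP most strongly. This grouping was brought in after the levels were known. Cct5 (chr15:31590800-31601804, minus strand) had 507.5 TPM in replicate 1 and 498.1 TPM in replicate 2, a mean of 502.8 ± 6.60, from 17751 and 18117 counts. Tcp1 (chr17:12915701-12925067, plus strand), the founding member of the family, had 422.9 and 416.2 TPM, a mean of 419.6 ± 4.75. The other genes of this side were the lowest of the 8.

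Cct4 (chr11:22990519-23003780, plus strand) had 289.6 TPM in replicate 1 and 297.9 TPM in replicate 2, a mean of 293.8 ± 5.85. Cct2 (chr10:117051001-117063814, minus strand) had 214.9 and 203.0 TPM, a mean of 209.0 ± 8.41, from 8070 and 7937 counts. Cct2 was the lowest subunit in both replicates, at 0.54 ± 0.02 of the geometric mean of the 8 subunits. Its replicate values did not overlap those of any other subunit.

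The other side of the ring holds Cct3, Cct6a, Cct8 and Cct7, which are known to use ATP less. Cct3 (chr3:88297116-88321767, plus strand) had 518.4 TPM in replicate 1 and 536.4 TPM in replicate 2, a mean of 527.4 ± 12.7. Its place as the highest subunit depended on a short transcript described below, and with coding transcripts alone Cct5 was highest. Cct6a (chr5:129786998-129846371, plus strand) had 461.9 and 444.4 TPM, a mean of 453.1 ± 12.4. Cct8 (chr16:87483326-87495873, minus strand) had 442.7 and 434.3 TPM, a mean of 438.5 ± 5.98. Cct7 (chr6:85451514-85468475, plus strand) had 372.3 and 378.0 TPM, a mean of 375.1 ± 4.02. Means on this side ran from 375.1 to 527.4 TPM, within which both Tcp1 and Cct5 of the other side also fell.

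The order from high to low was thus Cct3, Cct5, Cct6a, Cct8, Tcp1, Cct7, Cct4 and Cct2. A pair of subunits was called separated when it differed in the same direction in both replicates by more than the larger change of either gene between the replicates, on the log2(TPM + 1) scale. By this rule 26 of the 28 pairs were separated. The exceptions were Cct3 with Cct5, whose means differed 1.05-fold, and Cct6a with Cct8, whose means differed 1.03-fold. The closest separated pair was Cct8 with Tcp1 at 1.05-fold, and its deposited intervals overlapped in replicate 2 but not in replicate 1. When instead the deposited intervals had to lie apart in both replicates, 25 pairs were separated. Counting error alone was 0.73% to 1.12% of the value over the constitutive subunits and replicates. The deposited intervals were wider. On average they reached from 1.42% (Cct7, replicate 2) to 2.93% (Tcp1, replicate 1) of the posterior mean to either side. That is not small beside the pairs that differed 1.03-fold to 1.05-fold.

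Cct6b (chr11:82719250-82764321, minus strand) was close to the limit of detection. It had 11 counts in replicate 1 and 13 in replicate 2, which correspond to 0.32 and 0.35 TPM, a mean of 0.335 ± 0.0212. Exact 95% Poisson intervals of these counts correspond to 0.158 to 0.566 TPM and 0.186 to 0.598 TPM, and 3 counts would correspond to 0.0863 and 0.0807 TPM. By transcript, Cct6b-202 held 43.3% of its TPM in replicate 1 and 100% in replicate 2, too few counts to place the transcripts. A level below 1 TPM in both replicates was found for 38.1% of the 21474 named protein-coding genes.

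Cct6a exceeded Cct6b 1443-fold in replicate 1 and 1270-fold in replicate 2, 1357 ± 123 (SD, n = 2). With the counting limits of Cct6b the ratio could lie between 816 and 2923 in replicate 1 and between 743 and 2387 in replicate 2. Intervals and floors describe counting error alone, because PCR copies of a molecule cannot be told apart here. The germ cell markers, added because Cct6b is known from the testis, summed to 0.76 and 0.85 TPM. None of the 4 reached 1 TPM in both replicates, and Tnp1 and Prm1, which mark late spermatids, had 0 TPM.

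How the level of a subunit was made up of transcripts differed between the genes. In the tables Cct2, Cct6a and Cct7 have a single transcript each, whereas the later GENCODE M21 annotation lists 7 for each of them. For these 3 genes no split by transcript could be seen. The table's only Cct6a model is 1599 bases long and is open reading frame from end to end, so reads from its untranslated ends had no place there. Their part in the Cct6a level was not tested.

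**Figure D2:**
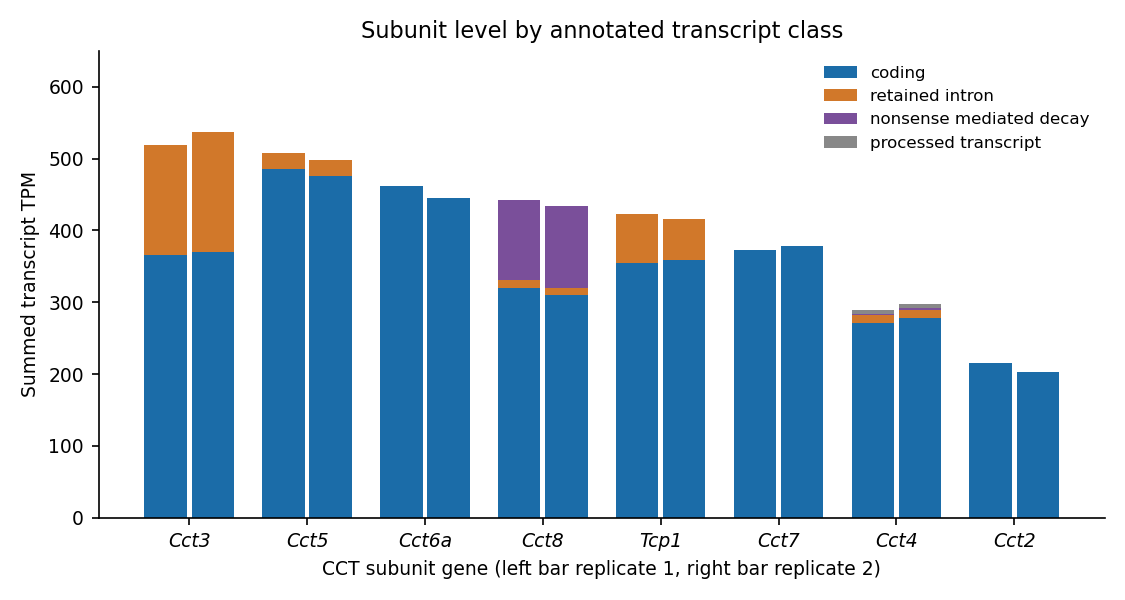
Summed TPM of the transcripts of each constitutive subunit, stacked by class, with replicate 1 on the left and replicate 2 on the right. Classes are as annotated, except that Cct6a-201, a processed transcript in M21, counts as coding. Coding transcripts hold about 69.7% of Cct3 and 71.8% of Cct8. They hold all of Cct2, Cct6a and Cct7, which have a single quantified transcript each and so could show no other class. The rest of Cct3 is retained intron and most of the rest of Cct8 is the nonsense-mediated decay class.

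Cct3 drew 27.7% of its TPM in replicate 1 and 28.9% in replicate 2 from Cct3-203, a 472-base transcript of the retained intron class. The same transcript held 7.04% and 7.43% of the Cct3 counts, 1079 and 1212, because TPM divides by length. Of its 472 bases, 453 lie in exons of the main coding transcript Cct3-201, and 19 contiguous bases (chr3:88320995-88321013) are intronic. The start of Cct3-203 is printed with those intronic bases in capitals, since they are all the sequence that sets it apart from Cct3-201.
Cct3-203: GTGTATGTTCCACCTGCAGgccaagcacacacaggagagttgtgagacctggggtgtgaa
Most reads placed on Cct3-203 could therefore have been placed on Cct3-201. The Cct3-201 transcript alone had 356.2 TPM in replicate 1 and 360.4 TPM in replicate 2, which was 68.7% and 67.2% of the gene.

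Cct8 drew 25.4% and 26.5% of its TPM from Cct8-209, of the class marked for nonsense-mediated decay, a pathway that removes transcripts with an early stop codon. Cct8-209 had 112.5 TPM in replicate 1 and 115.1 TPM in replicate 2, from 20.0% and 20.8% of the counts of the gene. All of its 1567 bases lie in exons of the main coding transcript Cct8-201, and it lacks the 80-base exon 3 (chr16:87493707-87493786, minus strand). A length of 80 leaves a remainder of 2 when divided into codons. The exon is printed in capitals with 20 bases of each neighbouring exon, followed by the same stretch as it reads in Cct8-209.
Cct8-201: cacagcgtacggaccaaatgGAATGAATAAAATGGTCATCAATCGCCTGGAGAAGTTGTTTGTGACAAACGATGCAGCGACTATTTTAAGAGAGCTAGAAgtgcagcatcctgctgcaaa
Cct8-209: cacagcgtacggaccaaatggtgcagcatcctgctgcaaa
Only reads that touch exon 3, cross the junction that skips it, or lie past the ends where the models differ tell the transcripts apart, so their split is an estimate. Cct8-201 held 54.2% and 54.4% of the TPM of the gene, and the coding transcript Cct8-203 16.4% and 15.6%.

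Tcp1 was shared between Tcp1-209, with 46.1% and 48.6% of its TPM, and Tcp1-201, with 36.1% and 36.6%. Both are coding. The 578-base retained intron transcript Tcp1-210 held 7.89% in replicate 1 and 5.40% in replicate 2, and its deposited intervals, 22.3 to 43.5 TPM and 14.1 to 30.6 TPM, overlapped. Cct4 was shared between the coding transcripts Cct4-204, with 57.2% and 58.5%, and Cct4-201, with 36.7% and 34.9%. Cct4-201 lacks the 90-base exon 3 (chr11:22994298-22994387, plus strand) of Cct4-204 and is otherwise made of its exons. Cct5 came almost whole from Cct5-201, with 94.6% and 94.3%.

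Counting only coding transcripts changed the order. Cct5 was then highest at 480.3 ± 7.04 TPM, followed by Cct6a at 453.1 ± 12.4 TPM and Cct7 at 375.1 ± 4.02 TPM. Cct3 moved from rank 1 to rank 4 at 367.7 ± 3.29 TPM, and Cct8 from rank 4 to rank 6 at 314.8 ± 7.33 TPM. Cct4 and Cct2 stayed lowest, at 275.0 ± 4.57 and 209.0 ± 8.41 TPM. Cct2, Cct6a and Cct7 have a single quantified transcript each, so neither this measure nor the next could change their values. The rise of Cct6a and Cct7 in rank thus rests partly on the annotation used. When all reads of a gene were set on its most abundant transcript, a measure added after seeing the data, Cct3 came at rank 3 with 409.6 ± 6.19 TPM behind Cct5 and Cct6a. Under both measures all 28 pairs were separated by the replicate rule, and Cct2 stayed the lowest subunit. The rule with deposited intervals was not applied to these measures. With coding transcripts only, Cct7 and Cct3, at 375.1 and 367.7 TPM, lay close beside the width of the deposited gene intervals, so their order is not firm.

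**Figure D3:**
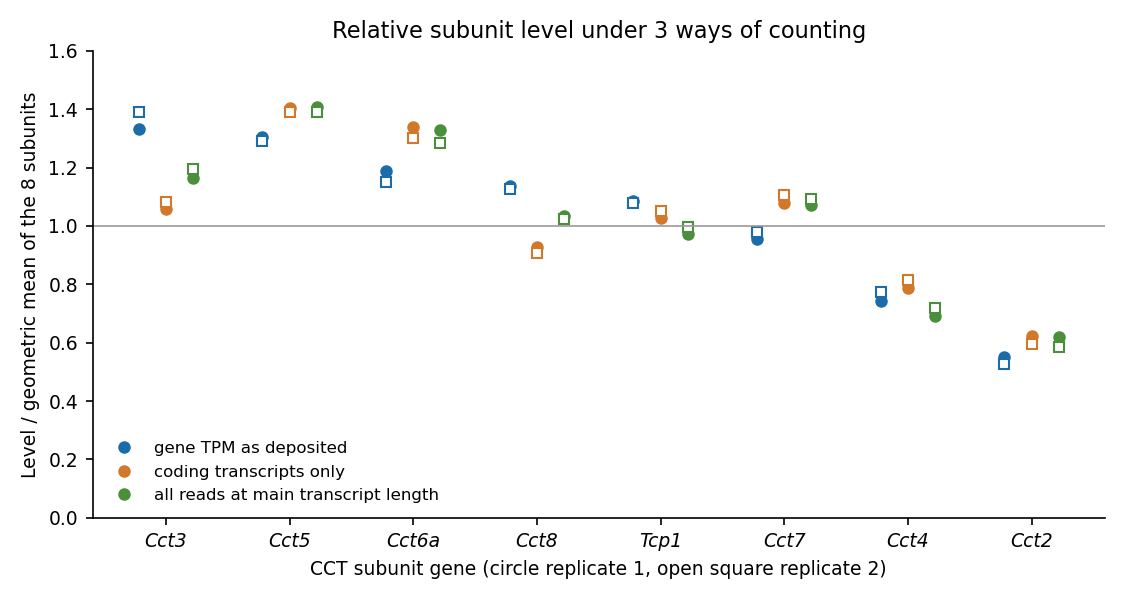
Level of each constitutive subunit divided by the geometric mean of the 8, for the deposited gene TPM, for coding transcripts only and for all reads at the length of the most abundant transcript. Circles are replicate 1 and open squares replicate 2. Cct3 falls from 1.36 to 1.07 with coding transcripts only, while Cct2 stays the lowest at 0.54 to 0.61.

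Most member genes started next to another gene. In the M21 annotation, 7 of the 9 had the start of an opposite-strand gene within 1000 bases of their own, against 18.6% of 21474 named protein-coding genes and 28.7% of the 721 at 200 TPM or more. This was looked at after the levels were known and rests on the annotation alone. The neighbour was lower than the member in 6 cases: Mrpl18, a mitochondrial ribosomal protein gene beside Tcp1, had 145.9 and 137.4 TPM, Psph beside Cct6a 38.8 ± 2.98 TPM and Pradc1 beside Cct7 26.9 ± 0.488 TPM. Fam173b beside Cct5 had 10.5 ± 0.460 TPM, Tsacc beside Cct3 9.56 ± 0.134 TPM and B130034C11Rik beside Cct8 4.51 ± 0.297 TPM. Beside Cct6b the order was turned, with Zfp830 at 31.1 and 31.8 TPM, where the starts lie 24 bases apart.

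Copies and overlapping genes can take or give reads. The 3 pseudogenes annotated inside Cct6b (Gm11420, Gm11421 and Gm11422) had 0 TPM. Among annotated pseudogenes, 6 matched a member mRNA at 80% identity or more over at least 50% of its length, 4 of which were analysed here. None reached 1 TPM in either replicate: Cct3-ps1 had 0.03 and 0 TPM, and Gm11516, Gm15495 and Tcp1-ps1 had 0. Windows of 100 bases in the main transcripts were never shared with another gene on the same strand. On the opposite strand, 20.2% of the windows of Tcp1-209 were shared with Acat3, which overlaps the end of Tcp1, and part of these also with its relative Acat2. Acat2 had 302.1 and 317.6 TPM, and Acat3 1.47 and 1.26 TPM. Shares were 4.95% for Cct7, with Pradc1, and 4.05% for Cct8, with Usp16. The sources used here do not say whether the counting used strand, so reads of these stretches cannot be assigned to a strand.

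The spread of RNA level over the CCT subunits was set beside that of other complexes whose subunit proteins are present in equal number. RNA level is not protein level, which was not measured. The SD of log2 TPM was 0.44 and 0.45 for the 8 CCT subunits. It was 0.48 and 0.46 for the 14 genes of the 20S proteasome core, the barrel that degrades proteins, and 0.50 and 0.50 for the 6 genes of the MCM2-7 helicase, which unwinds DNA for replication. For prefoldin, a complex of 6 different subunits that holds client proteins, it was higher, at 0.66 and 0.67, with a range of 3.67-fold and 3.81-fold. The median level of CCT, 429.0 TPM, stood above the 333.5 TPM of the proteasome core and the 150.1 TPM of the helicase. These are gene TPM over all transcript classes. With coding transcripts only, the CCT median was 362.4 TPM and its SD 0.389, and the other complexes were not computed that way. The sizes of the gaps therefore depend on the measure. The proteasome core ran from Psma5 at 193.5 ± 7.12 TPM to Psmb6 at 637.0 ± 19.6 TPM. The helicase ran from Mcm4 at 105.6 ± 2.30 TPM to Mcm7 at 260.6 ± 3.80 TPM. The level ranges of the other 3 complexes each overlapped that of CCT, and the differences in spread were not tested.

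**Figure D4:**
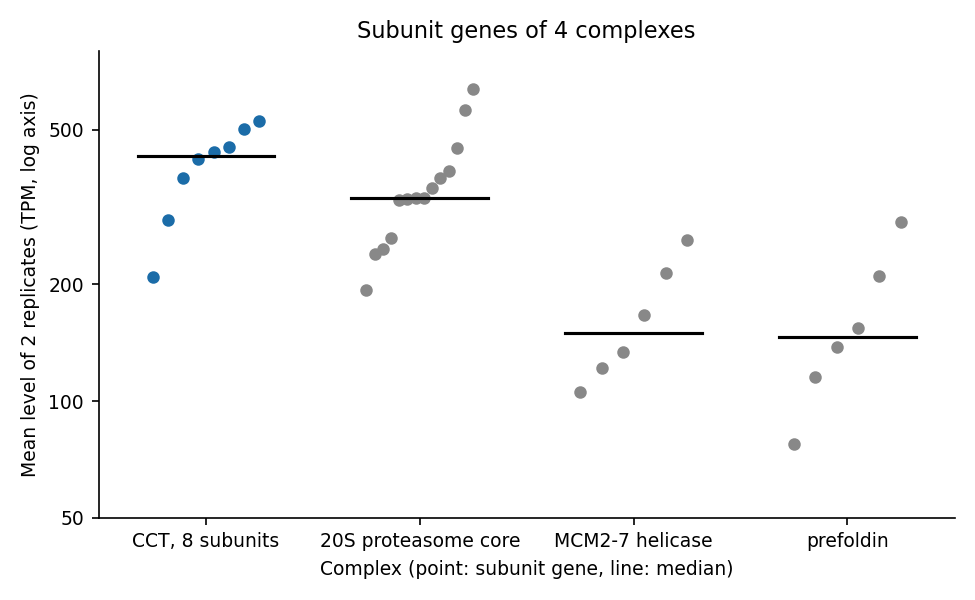
Mean TPM of 2 replicates on a log axis for the subunit genes of CCT, the 20S proteasome core, the MCM2-7 helicase and prefoldin, with a line at each median. CCT has the highest median of the 4, 429.0 TPM, and prefoldin the lowest, 146.1 TPM.

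Prefoldin, which hands actin and tubulin to CCT, had a lower median than CCT, at 146.1 TPM. Its genes ran from Pfdn1 at 77.6 ± 1.37 TPM to Pfdn5 at 290.0 ± 2.18 TPM. Pfdn5 lay above Cct2, the lowest CCT subunit, in both replicates, and Vbp1, with 213.1 and 207.8 TPM, overlapped it. The CCT cofactors of the phosducin-like and thioredoxin-like families ran from Pdcl3 at 145.3 ± 2.63 TPM down to Pdcl2, which had 0 TPM and 0 counts in both replicates. The CCT-like chaperonins, which act in cilium assembly or are copies of CCT genes, were far lower, with Mkks highest at 28.2 ± 0.77 TPM and Cct8l1 at 0 and 0.13 TPM.

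Among other chaperones the mitochondrial chaperonin genes came close to CCT, Hspd1 (Hsp60) at 329.4 ± 3.68 TPM and its lid Hspe1 (Hsp10) at 353.3 ± 5.08 TPM. The 6 tubulin folding cofactors, which take tubulin after CCT, ran from Tbca at 220.6 ± 3.46 TPM to Tbcc at 34.5 ± 1.75 TPM. Of the 19 genes listed as CCT clients, 11 had 200 TPM or more, against 5.51% of the 13092 named protein-coding genes at 1 TPM or more. The list was chosen by hand and is rich in abundant cytoskeletal genes. The 11 were Actb, Actg1, Tuba1a, Tuba1b, Tubb2a, Tubb2b, Tubb3, Tubb5, Cdc20, Gnb1 and Gnb2, so the count describes this list and not clients in general. The 19 ran from the alpha-tubulin Tuba1a, at 16.1 times the median of the CCT subunits, to the transcription factor Stat3 at 26.7 ± 1.88 TPM. Of 9 partner genes of the Hsp70 and Hsp90 systems, the highest was Hspa8 at 5.42 times the CCT median and the lowest Bag2 at 23.5 ± 0.29 TPM. In the heat shock list, Hspa5, the Hsp70 of the endoplasmic reticulum, had 480.4 ± 15.0 TPM. The inducible Hspa1b was the sole gene below 1 TPM, at 0.17 and 0.10 TPM, and Hspa1a had 1.87 and 1.62 TPM. The counts of both were fractional, 9.08 and 5.57 for Hspa1b, so part of their reads was assigned by estimate.

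The replicates gave nearly the same subunit levels. The median log2 ratio of replicate 2 to replicate 1 over the 8 constitutive subunits was -0.02, where the median over 15192 named genes at 1 TPM or more was 0.01, with 5th and 95th percentiles of -0.29 and 0.43. Single subunits ran from -0.08 for Cct2 to 0.05 for Cct3. The deposited intervals of the replicates did not overlap for 2 of the 9 members, Cct2 and Cct6a, both lower in replicate 2. The same was found for 13.9% of named genes at 1 TPM or more, for 26.3% of those at 100 TPM or more and for 5.34% with no filter, so the share of members was near that of other abundant genes. Of the members, 8 passed the minimum of 1 TPM. Erythroid and mesenchyme markers were higher in replicate 2, as given above, and their part in the lower Cct2 and Cct6a values was not tested.

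**Figure D5:**
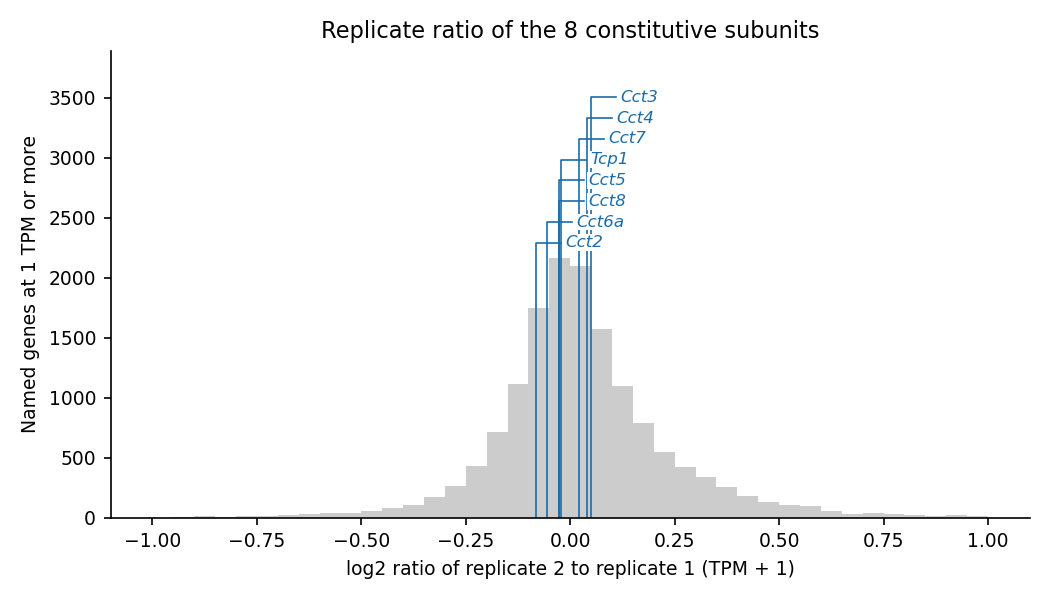
Histogram of the log2 ratio of replicate 2 to replicate 1, computed on TPM + 1, over named genes at 1 TPM or more, with the 8 constitutive subunits marked. The plot leaves out 236 genes beyond its ends. All 8 subunits lie between -0.08 and 0.05.

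RefSeq promoter windows on GRCm38.p6, from 250 bases before to 50 after a start, were found for 8 of the 9 members, as 10 windows, because Cct2 and Cct5 have a pair of starts each. Cct4 had no entry. The windows held 19 to 30 CG dinucleotides, against a median of 7 over 32851 windows. Of all windows, 71.9% had fewer than the lowest of these and 88.3% fewer than the highest, so such numbers are not rare. The zeta promoters are printed because their genes had such unequal levels. 4 motifs were searched on both strands: CCAAT, known from NF-Y sites, then CCGGAAG, known from ETS factors, then GAANNTTC, a short form of the heat shock element, and TATAAA, the TATA box. Capitals mark their matches, none of which overlapped in the printed windows. The windows are chr5:129787106-129787405 on the plus strand for Cct6a and chr11:82764272-82764571 on the minus strand for Cct6b.
Cct6a: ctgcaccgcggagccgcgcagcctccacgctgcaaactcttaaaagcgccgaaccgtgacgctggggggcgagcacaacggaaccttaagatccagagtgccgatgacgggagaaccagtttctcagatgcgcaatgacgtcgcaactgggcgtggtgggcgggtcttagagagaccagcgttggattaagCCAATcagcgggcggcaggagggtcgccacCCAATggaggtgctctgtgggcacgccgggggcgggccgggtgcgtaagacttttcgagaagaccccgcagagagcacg
Cct6b: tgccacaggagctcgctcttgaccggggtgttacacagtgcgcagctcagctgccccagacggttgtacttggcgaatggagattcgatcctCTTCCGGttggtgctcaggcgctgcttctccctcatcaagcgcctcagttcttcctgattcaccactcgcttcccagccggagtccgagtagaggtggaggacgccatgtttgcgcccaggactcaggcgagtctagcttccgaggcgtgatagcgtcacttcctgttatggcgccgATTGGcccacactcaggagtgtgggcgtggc
Cct6a had 30 CG dinucleotides and 2 CCAAT matches. Cct6b had 21 CG dinucleotides, 1 CCAAT match and 1 CCGGAAG match. Both windows were thus above the median in CG, although the levels of their genes lay far apart. The Cct6a window lies inside Psph and most of the Cct6b window inside Zfp830, each on the opposite strand. Their CG content and matches therefore cannot be assigned to the zeta genes alone. Over the 10 member windows, CCAAT was found in 5, against 37.4% of all windows, and CCGGAAG in 4, against 8.86%. CCGGAAG itself holds a CG, and the share over all windows is not matched for the higher CG number of the member windows. The 4 include the window of Cct6b and that of Tcp1, most of which lies inside Mrpl18. GAANNTTC was found in 1, a Cct2 window, against 7.86%, and TATAAA in none, against 13.6%. A match describes letters only, and the series has no measurement of factor binding.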

How the data were processed

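Gene and transcript tables of 2 total RNA-seq libraries were used. Per the labels, mirVana-extracted RNA over 200 nt was used at 10 ng a library, with spike-ins. Per the deposited text, the tables are on mm10 with GENCODE M4. The sources used here name no aligner or quantifier. The authors' tables give expected counts (estimated reads per feature, not normalized), TPM and posterior mean TPM relative to all features including spike-ins, interval bounds of unstated level, and for each transcript its percent of the TPM of its gene. The deposited intervals lie around the posterior mean, which was inside them for all 8 constitutive subunits in both replicates. The deposited TPM exceeded the interval for 6 of the 8 in replicate 1 and 5 in replicate 2. How the deposited TPM was estimated is not stated in the sources used here. Spike-ins held 9.19% and 8.25% of the deposited TPM.

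Symbols, classes and positions were joined from GENCODE M21 by identifier. The members, lists and comparisons were chosen with earlier results of these data known. Named were all members, the highest and lowest gene of each list, genes counted as below 1 TPM, transcripts at 5% or more of their gene in both replicates, and overlapping genes; other names were added after their values were seen. Values are means ± SD of 2 replicates, a pseudocount of 1 was used for log2 ratios, and no test across genes was made. M21 classes both Cct6a and Cct6a-201 as processed transcript, so Cct6a is not among the named protein-coding genes that give the shares above. Cct6a-201 counted as coding because its frame is open throughout. Frames were aligned globally with Biopython 1.88, pseudogenes found with blastn 2.17.0. Expected counts were rounded for the scaling alternatives, TMM in edgeR 4.0.16 and size factors in DESeq2 1.42.0. The interval and scaling steps were run on simulated Poisson counts, and the pair rule on a few set levels. The simulated counts lack replicate variation and transcript assignment, so these runs do not show how the rules act on the deposited data. Figures used matplotlib 3.10.9. A further marker on the forebrain list is not reported here.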

Additional observations from a re-analysis of the deposited data

How the results depend on the processing

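The order of magnitude of the levels held under each alternative run, and Cct2 stayed the lowest constitutive subunit in all of them. The median level, 429.0 TPM as reported, was 419.9 TPM with the deposited posterior mean, 471.6 TPM after rescaling to named mouse genes, 362.4 TPM with coding transcripts only and 365.9 TPM with all reads at the length of the most abundant transcript. The sum, 3219 TPM as reported, was 3138, 3539, 2832 and 2874 TPM in the same order. The ratio of highest to lowest, 2.53 as reported, was 2.30 with coding transcripts only, 2.28 with expected counts not divided by length and 2.32 with all reads at the length of the most abundant transcript. The SD of log2 TPM, 0.446 as reported, was 0.389, 0.398 and 0.423 in that order. The Cct6a to Cct6b ratio, 1357 as reported, was 1164 with the posterior mean, 1173 with expected counts and 1044 with a pseudocount of 0.1. Without either replicate the ranges were 425.2 to 432.8 TPM for the median, 3208 to 3230 TPM for the sum, 2.41 to 2.64 for the ratio, 0.439 to 0.454 for the SD and 1270 to 1443 for the zeta ratio. The count of separated pairs ran from 24 to 28, the median replicate ratio from -0.04 to -0.00064 on the log2 scale, and the same 2 members, Cct2 and Cct6a, had intervals apart after rescaling. Adding pseudogene copies moved no value by more than the replicate SD. The coding-only alternative leaves out the reads placed on other classes of Tcp1, Cct3, Cct4, Cct5 and Cct8 and moves none of them. The length alternative sets all reads of each gene on its most abundant transcript. Both thus shift these genes by their construction. Cct4, for example, went from 293.8 TPM to 275.0 and 244.3 TPM. Rescaling, the pseudocount and counts not divided by length also act by construction, and the cause of the shift with the posterior mean was not tested. Among the members, depth limits Cct6b, with 11 and 13 counts. No paired analysis was possible because the samples form a single group.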

Other observations

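The introns of Tcp1 and Cct6a hold annotated small nucleolar RNAs. Snora20 in Tcp1 had 1.71 and 1.64 TPM from 1 count in each replicate, and Gm26130 in Tcp1 had 0.11 and 0 TPM. In Cct6a, Snora15 had 0 and 2.98 TPM and Gm23245 0 and 2.65 TPM, each from 2 counts in replicate 2. The libraries kept RNA over 200 nt, longer than these genes, so their levels are not read here.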
